A study of Mus musculus with 9 samples.

Results

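The 10 genes examined here were Cdkn1a, Mdm2, Ccng1, Gadd45a, Gadd45b, Gadd45g, Btg2, Plk2, Phlda3 and Bax, a group of growth arrest and damage response genes chosen by name from the 26139 genes of the deposited table. They were followed in kidney RNA of 3 groups of mice with 3 libraries each. WT mice (C57/BL6, genotype WT) received saline by gavage. IgAN mice carried Itgam-IRES-hCD89, in which the human IgA receptor CD89 is placed at the locus of the myeloid integrin gene Itgam, and also received saline. GQYS mice carried the same allele and were given a herbal preparation, Gui-qi-yi-shen granules, through daily gavage over 5 months. The labels call both saline groups untreated and give no age, sex or dose. Nothing in them ties each library to a mouse of its own, so every p-value reflects only library-to-library spread, part of which may be technical. The series concerns the action of the granules in IgA nephropathy, a kidney disease in which IgA is deposited in glomeruli.

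The transcription factor p53 is stabilised after DNA damage and other stresses and switches on genes that halt the cell cycle, repair DNA or start apoptosis. Cdkn1a encodes p21, an inhibitor of cyclin-dependent kinases, and Mdm2 encodes the ubiquitin ligase that degrades p53 and so closes a feedback loop. Many of these genes also have inputs that do not pass through p53: Cdkn1a responds to glucocorticoids and growth factor signals, and the GADD45 genes respond to stress kinases, NF-kB and hypertonicity. In the kidney, p21 is known as a gene that tubular cells switch on after injury.

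All 10 genes had a promoter entry in the RefSeq table of build GRCm38.p6, and Cdkn1a had a pair of them. These windows are shown because the best known shared input of the group is p53, and because the members differed in which motif they carried. Letters are given 5′ to 3′ on the strand of the gene, upstream of the annotated start, and capitals mark a motif match. For Cdkn1a the whole 250 bases before the upstream start are printed (chr17:29090729-29090978, plus strand), with 2 matches to the p53 decamer, the 10-base unit of a p53 response element. The next 4 lines show the decamer in Mdm2 (chr10:117710910-117710969, minus strand), Ccng1 (chr11:40755437-40755496, minus strand), Bax (chr7:45467065-45467124, minus strand) and Gadd45a (chr6:67037413-67037472, minus strand). The last 4 lines show a TATA box in Gadd45b (chr10:80930020-80930075, plus strand) and Gadd45g (chr13:51846623-51846674, plus strand) and a cyclic AMP response element in Btg2 (chr1:134079289-134079346, minus strand) and Plk2 (chr13:110394957-110395014, plus strand).
Cdkn1a: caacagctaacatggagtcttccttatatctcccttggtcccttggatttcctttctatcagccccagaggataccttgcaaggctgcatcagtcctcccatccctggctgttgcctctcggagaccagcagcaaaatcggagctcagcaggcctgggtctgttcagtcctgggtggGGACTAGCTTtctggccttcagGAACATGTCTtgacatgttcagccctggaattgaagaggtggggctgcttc
Mdm2: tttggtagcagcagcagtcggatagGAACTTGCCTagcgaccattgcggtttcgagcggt
Ccng1: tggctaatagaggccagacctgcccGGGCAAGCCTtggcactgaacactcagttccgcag
Bax: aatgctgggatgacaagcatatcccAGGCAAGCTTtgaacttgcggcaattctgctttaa
Gadd45a: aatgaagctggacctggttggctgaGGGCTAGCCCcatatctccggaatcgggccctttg
Gadd45b: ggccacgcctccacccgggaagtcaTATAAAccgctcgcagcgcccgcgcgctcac
Gadd45g: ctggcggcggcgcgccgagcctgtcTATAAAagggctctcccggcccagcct
Btg2: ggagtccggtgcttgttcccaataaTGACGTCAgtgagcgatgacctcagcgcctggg
Plk2: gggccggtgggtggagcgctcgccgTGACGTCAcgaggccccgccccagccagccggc
The p53 decamer was present in 5 of the 11 member promoters, against 7.13% of the 32851 promoters in the table. The window of the other Cdkn1a start, downstream of the printed one, had none. A pair of adjoining decamers without a spacer was in 0 of the 11 and in 0.00913% of all. In the printed Cdkn1a window the second match is followed directly by tgacatgttc, which misses the decamer only at its leading letter. The search with exact letters therefore counted no pair there. The TATA box (TATAAA) was found in 2 member promoters and in 12.4% of all. The cyclic AMP response element (TGACGTCA) was found in 2 and in 1.55% of all, and its core TGACG, which every full element contains, in the same 2 genes and in 17.8% of all. The CCAAT box (CCAAT) matched 6 of 11 (33.8% of all), the GC box (GGGCGG) 8 (32.7%) and the E-box (CACGTG) 3 (6.02%). The AP-1 site (TGANTCA), the STAT site (TTCNNNGAA), the glucocorticoid response element, the NF-kB site and the CArG box had no match in these windows and matched 6.75%, 7.02%, 0.387%, 7.25% and 1.47% of all promoters. Both strands were searched with exact letters. Such matches describe the letters only.

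The libraries held between 30564947 and 38161564 reads assigned to genes, recovered from the steps of the FPKM values (fragments scaled by gene length and by assigned reads). WT replicate 1 and IgAN replicate 1 stood apart from the other 7 on the first principal component (-28.1 and -23.8, with the others at or above -3.09). The mitochondrial share of reads was 18.6% in WT replicate 1 and ranged over 7.81% to 13.3% elsewhere. All listed markers of proximal tubule, loop and distal tubule, collecting duct, podocyte and endothelium were above 0 in every library, so the labelled tissue was not contradicted. Fat markers summed to 18.1 FPKM in WT replicate 3 and to at most 0.615 in the IgAN and GQYS libraries.

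Among the 10 genes, Ccng1, which encodes cyclin G1, had the highest level, a mean of 54.8 FPKM over the 9 libraries and above 90.0% of the 11617 genes tested. It was followed by Bax, a pore-forming protein of apoptosis (36.2 FPKM), Gadd45g (27.6) and Gadd45a (21.1), then by Cdkn1a (8.16), Btg2 (6.60) and Mdm2 (5.92). Plk2, a polo-like kinase, had a mean of 3.82 FPKM, Phlda3, a p53-induced inhibitor of AKT, 3.41, and Gadd45b 2.90, above 24.4% of the tested genes. The place of Cdkn1a came from the IgAN libraries: its mean was above those of Btg2 and Mdm2 in IgAN (16.2 against 7.36 and 6.40 FPKM) and below both in WT (4.41 against 7.54 and 5.65) and in GQYS (3.84 against 4.89 and 5.70). Neighbours in this order overlapped in their ranges over the 9 libraries except Mdm2 and Plk2, whose ranges met at 5.15 and 5.10 FPKM. Between 76 reads (Gadd45b in WT replicate 3) and 8335 reads (Ccng1 in GQYS replicate 2) stood behind each value, and at 76 reads counting alone gives an error of 11.5%. The genes also differed in how much they varied. The within-group SD on the log2(FPKM + 1) scale was 0.811 for Gadd45g, more than for 99.8% of tested genes. For Gadd45g, WT replicate 1 stood at 94.0 FPKM, against at most 31.1 in the rest. The SD was 0.503 for Cdkn1a (98.0%) and 0.413 for Gadd45a (95.4%), but 0.128 for Mdm2 (26.4%). Exons of 3 members overlap another gene model in GENCODE M21, Cdkn1a and Gadd45a on the opposite strand and Bax on the same strand, and since the strand setting of the counting is not given, reads of such a pair cannot be told apart.

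**Figure D1:**
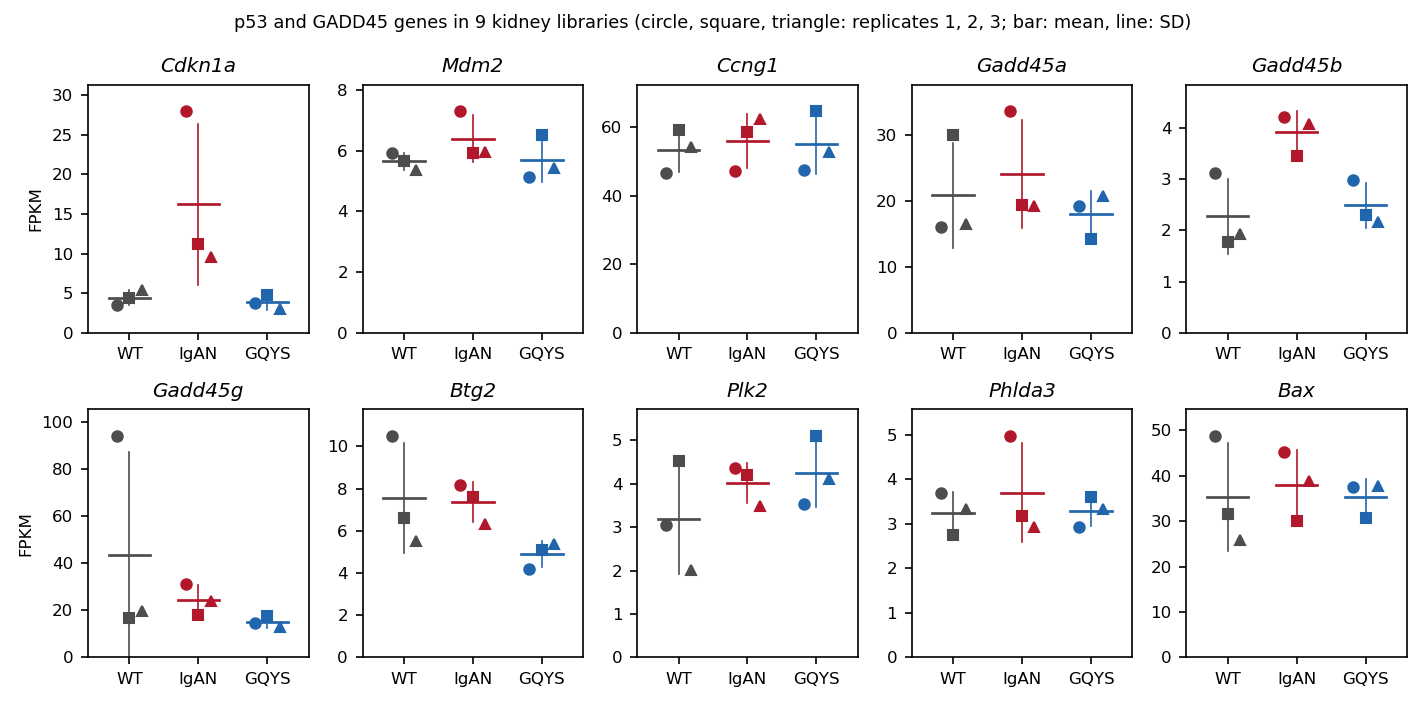
FPKM of each gene (vertical axes, from 0) in WT, IgAN and GQYS kidneys, with circles, squares and triangles for replicates 1, 2 and 3, a bar for the mean and a line for the SD (stopped at 0 for Gadd45g in WT). Cdkn1a and Gadd45b had all 3 IgAN libraries above the other 6, and WT replicate 1 stood alone at 94.0 FPKM for Gadd45g.

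IgAN was first set against WT, which shows kidneys with the CD89 allele beside wild-type kidneys on the same saline gavage. Cdkn1a was at 28.0, 11.2 and 9.53 FPKM in the 3 IgAN libraries and at 3.53, 4.32 and 5.39 in WT. Every IgAN library was above every WT library, and IgAN replicate 1 was the highest of all 9. The group means were 16.2 ± 10.2 and 4.41 ± 0.930 FPKM (SD, n = 3 each), a ratio of 3.68, and the log2 change on the log2(FPKM + 1) scale, which understates changes of low genes, was 1.53 ± 0.33 (SE). Its adjusted p in the limma fit was 0.105, and Cdkn1a ranked 109th of 11617 genes by p, so it did not pass the threshold of 0.05. In the fit without IgAN replicate 1 the log2 change was 1.08 and the adjusted p 0.0983.

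In limma 0 of the 10 members reached an adjusted p under 0.05 here, where 0.353% of all tested genes did, and voom on the recovered reads also called 0. At an unadjusted p below 0.05 there were 2, Cdkn1a and Gadd45b, both higher, against 10.3% of all tested genes (6.97% higher). FPKM ranges of the groups lay apart for 3 members, all higher in IgAN, against 14.0% of all tested genes, 9.18% being higher. Of the log2 changes, 9 were above 0 and 1 below, with a median of 0.14, where 54.7% of all tested genes were above 0 with a median of 0.02.

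Mdm2 was the third gene with ranges apart, at 7.31, 5.94 and 5.96 FPKM in IgAN and 5.94, 5.65 and 5.36 in WT. The groups were apart by a margin that vanishes in rounding, between IgAN replicate 2 and WT replicate 1. The log2 change was 0.15 ± 0.12 (SE) with a limma adjusted p of 0.745. Ccng1 stood at 47.1, 58.7 and 62.3 FPKM in IgAN and at 46.5, 59.3 and 54.2 in WT. These values overlapped throughout, and the log2 change of 0.067 ± 0.15 (SE) was smaller than its error (limma adjusted p = 0.940). Thus the kinase inhibitor had a ratio of means of 3.68 between the groups, whereas the ratios of the feedback ligase Mdm2 and of cyclin G1 were 1.13 and 1.05; the difference between these ratios was not tested.

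The 3 GADD45 genes encode small acidic proteins that bind the kinase MAP3K4, the replication clamp PCNA and the mitotic kinase CDK1. Gadd45b was at 4.23, 3.45 and 4.09 FPKM in IgAN and at 3.12, 1.78 and 1.94 in WT. Every IgAN library was above every WT library, with a log2 change of 0.60 ± 0.16 (SE) and a limma adjusted p of 0.189. In the fit without WT replicate 1, its highest WT library, the change was 0.78 and the adjusted p 0.0436, with 0.560% of all genes called.

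Gadd45a, the member first described as a p53 target, was at 33.7, 19.4 and 19.3 FPKM in IgAN and 16.0, 30.1 and 16.6 in WT. In each group 1 library was high, IgAN replicate 1 and WT replicate 2, and the ranges overlapped (log2 change 0.21 ± 0.28 SE, limma adjusted p = 0.887). Without IgAN replicate 1 its log2 change was -0.046. Gadd45g was at 31.1, 18.1 and 24.0 FPKM in IgAN and at 94.0, 16.9 and 19.5 in WT. WT replicate 1 set the WT mean of 43.5 ± 43.8 FPKM (SD, n = 3), and the log2 change of -0.40 ± 0.52 (SE, limma adjusted p = 0.887) became 0.37 without that library. In WT replicate 1 the immediate-early gene Egr1 was also highest, at 71.0 FPKM against 1.22 to 8.49 in the other 8 libraries. Some other immediate-early genes peaked there too, while others, Fosl2, Maff and Klf6 among them, were highest in IgAN replicate 1. The mitochondrial share was also highest in WT replicate 1. With that share as a covariate the log2 change of Gadd45g was 0.23. The part of Egr1 or of the mitochondrial share in the level of Gadd45g was not tested.

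Btg2 and Plk2 are early response genes, the first an antiproliferative protein that recruits mRNA deadenylases and the second a polo-like kinase. Btg2 was at 8.16, 7.59 and 6.32 FPKM in IgAN and at 10.5, 6.62 and 5.52 in WT, with WT replicate 1 again the highest. Its log2 change was 0.0048 ± 0.20 (SE). Plk2 was at 4.35, 4.20 and 3.49 FPKM against 3.04, 4.52 and 2.01, overlapping ranges with a log2 change of 0.30 ± 0.21 (SE). The limma adjusted p was 0.996 for Btg2 and 0.686 for Plk2.

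The apoptosis and survival members were close between the groups. Bax was at 45.2, 30.0 and 38.8 FPKM in IgAN and 48.8, 31.5 and 25.9 in WT, and Phlda3 at 4.97, 3.18 and 2.93 against 3.68, 2.75 and 3.33. Both overlapped, with log2 changes of 0.13 ± 0.22 and 0.12 ± 0.17 (SE) and limma adjusted p of 0.917 and 0.888. The highest Phlda3 value was in IgAN replicate 1, as it was for Cdkn1a, Mdm2, Gadd45a and Gadd45b. That library stood apart on the first principal component, and the share of all tested genes that peaked in it was not computed.

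**Figure D2:**
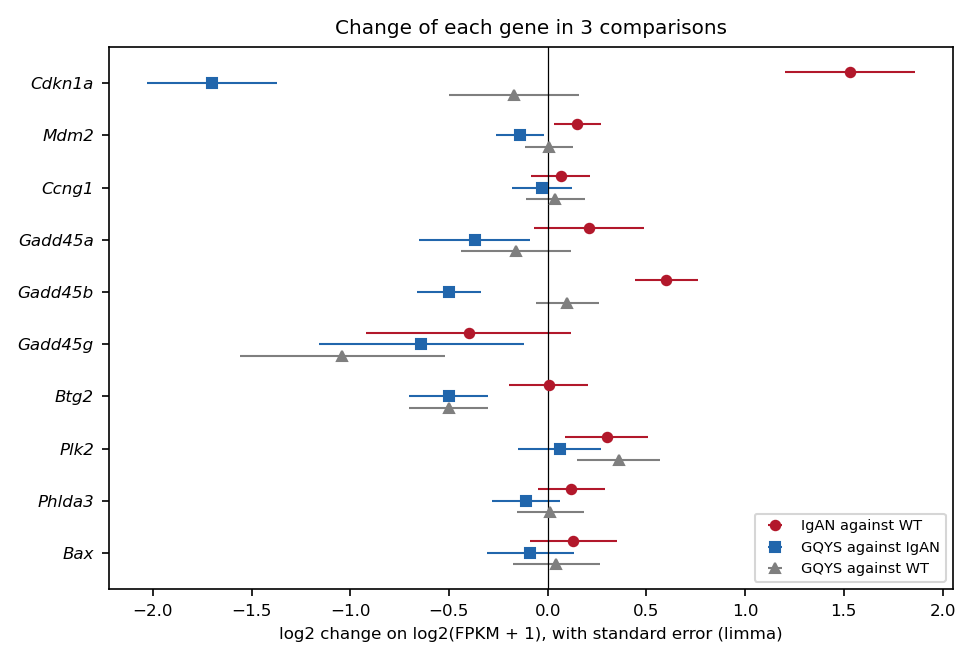
Log2 change of each gene on the log2(FPKM + 1) scale (horizontal axis) with its standard error, for IgAN against WT (circles), GQYS against IgAN (squares) and GQYS against WT (triangles). Cdkn1a had the widest changes, 1.53 and -1.70, and the changes of Mdm2, Ccng1, Phlda3 and Bax lay within 0.15 of 0 in all 3 comparisons.

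IgAN replicate 1 also had the highest level of Havcr1, the tubular injury marker KIM-1, at 43.8 FPKM against 0.116 to 1.79 in the other 8 libraries. The 8 tubular injury markers summed to between 478 and 1241 FPKM in IgAN, 368 and 386 in WT and 338 and 521 in GQYS. Most of each sum came from Spp1 (257 to 883 FPKM) and Clu (56.9 to 244). Of the 8, 6 were tested, and Vcam1 was past the threshold in both comparisons that involve IgAN. Timp1 reached the filter of 1 FPKM in 3 libraries only through IgAN (1.24 to 22.2 FPKM), with at most 0.794 in WT and 0.574 in GQYS. The 7 neutrophil markers summed to between 26.5 and 33.3 FPKM in IgAN, 1.10 and 3.32 in WT and 2.19 and 3.38 in GQYS, and 3 of the 7 were above 0 in every library. The 3 neutrophil markers that were tested all passed, higher in IgAN than in WT and lower in GQYS than in IgAN, with median log2 changes of 2.74 and -2.31. Of these, Retnlg reached the filter of 1 FPKM in 3 libraries only through IgAN (2.26 to 2.78 FPKM), with at most 0.160 in WT and 0.131 in GQYS. Cxcr2, Ly6g, Mmp8 and Ngp did not reach it, so the count of passing markers was partly set by the filter. The 6 macrophage markers summed to between 95.1 and 147 FPKM in IgAN, 51.6 and 127 in WT and 63.7 and 81.5 in GQYS, and none of them passed. All 6 macrophage changes were above 0 in IgAN against WT (median log2 change 0.37) and below 0 in GQYS against IgAN (median -0.48). Of these, 0 and 1 had a limma unadjusted p below 0.05. The 6 mesangium and fibroblast markers summed to between 45.3 and 65.7 FPKM in IgAN, highest in replicate 1, 34.8 and 47.5 in WT and 39.6 and 45.0 in GQYS. Their log2 changes were above 0 for 6 of 6 in IgAN against WT (median 0.37) and below 0 for 5 of 6 in GQYS against IgAN (median -0.23), with 0 past the threshold in limma and 3 and 1 at an unadjusted p below 0.05. Over all tested genes 54.7% and 51.6% of the changes were above 0, and 10.3% and 10.4% of genes were below that p. The part of these cells and of injury in the values of Cdkn1a and Gadd45b was not tested. In whole kidney RNA, more cells of a type and more RNA per cell cannot be told apart.

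GQYS was then set against IgAN, which shows kidneys with and without the granules on the same allele. It uses the same 3 IgAN libraries as the comparison with WT, so opposite signs are no independent support. Cdkn1a was at 3.76, 4.79 and 2.95 FPKM in GQYS, below all 3 IgAN libraries. Its mean of 3.84 ± 0.926 FPKM (SD, n = 3) was lower than the IgAN mean by a factor of 4.23, with a log2 change of -1.70 ± 0.33 (SE). The limma adjusted p was 0.103 and Cdkn1a ranked 53rd by p. Without IgAN replicate 1 the log2 change was -1.25 (adjusted p = 0.0734). With WT replicate 1 left out as well, it was again -1.25 and passed, with an adjusted p of 0.0155 and 0.542% of all genes called.

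Again 0 of the 10 members reached an adjusted p under 0.05 in limma, against 0.198% of all tested genes, and voom on the recovered reads called 0. At an unadjusted p below 0.05 there were 3, Cdkn1a, Gadd45b and Btg2, all lower in GQYS, against 10.4% of all tested genes (4.90% lower). FPKM ranges lay apart for 4 members, all lower in GQYS, against 19.1% of all tested genes, 9.29% being lower. Of the log2 changes, 9 were below 0 with a median of -0.25, whereas 51.6% of all tested genes were above 0.

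Gadd45b was at 2.99, 2.30 and 2.17 FPKM in GQYS, each below the lowest IgAN library. The log2 change was -0.50 ± 0.16 (SE, limma adjusted p = 0.308). Gadd45g was at 14.5, 17.7 and 13.0 FPKM, also below all IgAN libraries, narrowly so for GQYS replicate 2, with a log2 change of -0.64 ± 0.52 (SE, limma adjusted p = 0.787). Gadd45a, at 19.3, 14.2 and 20.8 FPKM, overlapped with IgAN (log2 change -0.37 ± 0.28 SE, limma adjusted p = 0.750). The 3 GADD45 genes thus had lower means in GQYS than in IgAN, none past the threshold.

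Btg2 was at 4.19, 5.11 and 5.36 FPKM in GQYS, below every IgAN and every WT library. The log2 change against IgAN was -0.50 ± 0.20 (SE, limma adjusted p = 0.403). Plk2 was the 1 member above 0, at 3.54, 5.10 and 4.11 FPKM (log2 change 0.061 ± 0.21 SE). Its values overlapped with IgAN, and the limma adjusted p was 0.983.

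The remaining 4 genes differed by less than the spread between libraries. Mdm2 was at 5.15, 6.52 and 5.44 FPKM in GQYS and Ccng1 at 47.6, 64.7 and 52.7. Phlda3 was at 2.93, 3.60 and 3.33 FPKM and Bax at 37.6, 30.8 and 37.7. All of these overlapped with IgAN, with log2 changes of -0.14, -0.028, -0.11 and -0.089 and limma adjusted p between 0.792 and 0.994.

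**Figure D3:**
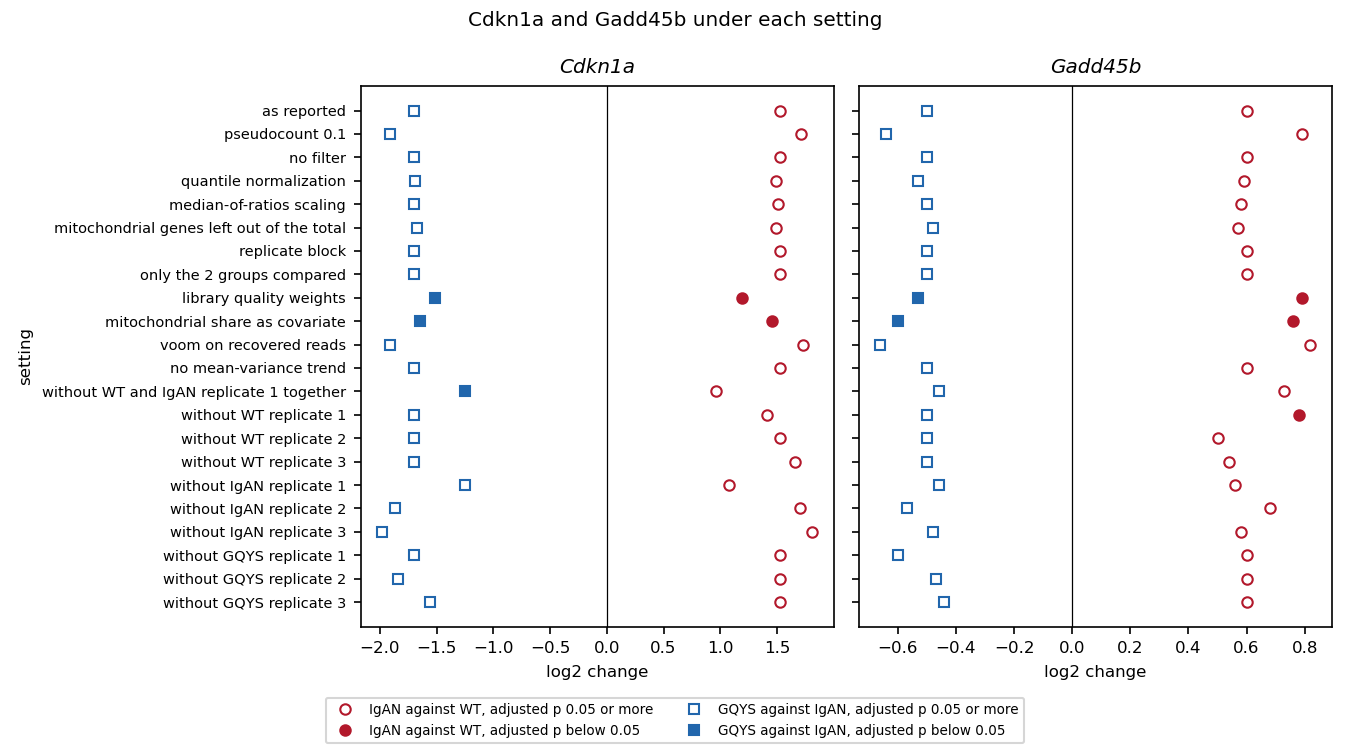
Log2 change of Cdkn1a and Gadd45b (horizontal axes) in the reported fit and under each of 21 alternatives (one line each), with circles for IgAN against WT, squares for GQYS against IgAN and filled symbols for an adjusted p below 0.05. The changes of Cdkn1a ranged from 0.96 to 1.81 and from -1.98 to -1.25, those of Gadd45b from 0.50 to 0.82 and from -0.66 to -0.44, and few of them were filled.

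The calls on Cdkn1a and Gadd45b differed between settings, and the reason was not tested. With limma's library quality weights both passed in IgAN against WT (adjusted p = 0.0214 and 0.00767) and in GQYS against IgAN (0.0101 and 0.0407), a setting under which 5.64% and 3.48% of all tested genes passed. With the mitochondrial share as a covariate both passed as well (0.0462 and 0.0186, then 0.0400 and 0.0344), together with Bax in the first comparison (log2 change 0.40, adjusted p = 0.0426) and Btg2 in the second (-0.64, 0.0408), where 6.30% and 3.19% of all genes passed. Over all 21 alternatives the adjusted p of Cdkn1a ran from 0.0214 to 0.269 and from 0.0101 to 0.429. Leaving out GQYS replicate 3, which did not stand apart on the first principal component, gave the 0.429. For Gadd45b the adjusted p ran from 0.00767 to 0.460 and from 0.0344 to 0.830, the 0.830 also without GQYS replicate 3.

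The comparison of GQYS with WT set treated mice with the allele beside wild-type mice on saline. None of the 10 genes passed limma, as was the case for 0 of all 11617 genes (0% called), and voom also called 0; 1 member, Btg2, had an unadjusted p below 0.05, against 4.43% of all genes (1.10% lower, as Btg2 was). Btg2 was also the 1 member with ranges apart (9.74% of all tested genes, 2.61% lower), at 4.89 ± 0.618 FPKM in GQYS and 7.54 ± 2.61 in WT (SD, n = 3; log2 change -0.50 ± 0.20 SE, limma adjusted p = 0.999). Cdkn1a, at 3.84 ± 0.926 against 4.41 ± 0.930 FPKM, overlapped between the groups, with a log2 change of -0.17 ± 0.33 (SE). Gadd45b overlapped too, with a log2 change of 0.10 ± 0.16 (SE). Gadd45g had the widest difference, -1.04 ± 0.52 (SE) on the log2 scale, and without WT replicate 1 it was -0.27. Plk2 and Gadd45a had log2 changes of 0.36 and -0.16, and Mdm2, Ccng1, Phlda3 and Bax lay between 0.0072 and 0.043. The data bound these differences only through their errors and do not show that the 2 groups were alike.

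Cdkn1a and Gadd45b were the 2 of 10 genes with every IgAN library above every WT and every GQYS library, a pattern that 4.64% of all tested genes had. The group mean was highest in IgAN for 7 of the 10 genes. The share of all tested genes with their highest mean in IgAN was not computed. Mdm2, Ccng1, Phlda3 and Bax were among the 7, with log2 changes within 0.15 of 0 in both comparisons with IgAN.

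The 10 genes did not vary as one block across libraries. Over the 9 libraries, on the log2(FPKM + 1) scale, the 45 pairs had Pearson r between -0.62 and 0.83 with a median of 0.33, and 10 pairs were below 0. Libraries, groups and depth are shared by all these points, so the values are descriptions. Among the high values were those of Cdkn1a with Mdm2 (r = 0.75), Gadd45b (0.71) and Phlda3 (0.60), and Mdm2 with Phlda3 (0.79). Without IgAN replicate 1 these 4 were 0.36, 0.58, -0.25 and 0.43. Gadd45g had r of 0.83 with Btg2 and 0.65 with Bax, which without WT replicate 1 were 0.69 and 0.35. Leaving out that library moved other pairs upward: Cdkn1a with Gadd45g went from 0.11 to 0.91, Cdkn1a with Btg2 from 0.37 to 0.81 and Mdm2 with Gadd45g from 0.35 to 0.77. Which genes varied together therefore depended on WT replicate 1 and IgAN replicate 1. Ccng1 had negative r with 7 of the other 9 genes, the lowest with Bax (-0.62). Without IgAN replicate 1 its r with Bax was -0.54. Its r with Cdkn1a then went from -0.04 to 0.58, with Mdm2 from 0.04 to 0.63 and with Gadd45a from -0.23 to 0.09.

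**Figure D4:**
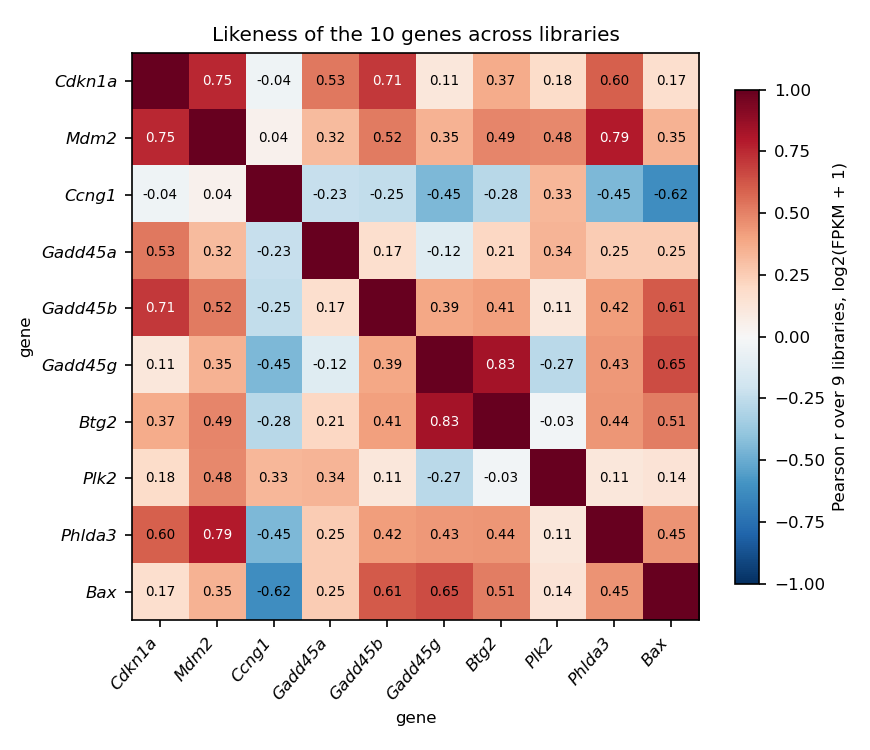
Pearson r between each pair of the 10 genes over 9 libraries on the log2(FPKM + 1) scale (colour from -1 to 1, values printed). Cdkn1a, Mdm2, Gadd45b and Phlda3 had r between 0.42 and 0.79 among themselves, and the row of Ccng1 is mostly below 0.

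Of the other tested genes, those most like Cdkn1a across the 9 libraries were Cldn4, a claudin of tight junctions (r = 0.995), Il4ra, the interleukin-4 receptor subunit (0.974), Ckap4 (0.967), Acot7, an acyl-CoA thioesterase (0.965), and Spsb1 (0.962). Without IgAN replicate 1 these r were 0.988, 0.941, 0.903, 0.899 and 0.943. Cldn4 was at 22.4, 9.55 and 8.94 FPKM in IgAN, at 3.89, 5.12 and 5.30 in WT and at 4.18, 5.65 and 3.70 in GQYS. All 5 genes had IgAN ranges above both other groups. Picking them by r to Cdkn1a in these same libraries largely fixed that pattern, so it is no separate support. Spsb1 reached the filter of 1 FPKM in 3 libraries only through IgAN (1.28 to 1.72 FPKM), with at most 0.659 in WT and 0.811 in GQYS. None of the 5 passed limma (adjusted p between 0.0755 and 0.327 over both comparisons with IgAN). The genes most like Gadd45a were Ccndbp1 (0.901), Ssr1 (0.893), Rab34 (0.887), Irf5 (0.882) and Slc6a15 (0.880), whose ranges overlapped in every comparison.

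The wider pathway was read from lists of genes in the same fit. Trp53, the gene of p53 itself, had a WT mean of 11.6 ± 1.55 FPKM, an IgAN mean of 13.9 ± 3.51 and a GQYS mean of 12.1 ± 1.70 (SD, n = 3), with overlapping ranges and limma adjusted p of 0.745 and 0.859 in the 2 comparisons with IgAN. Of the 17 tested genes among 20 p53 regulators 0 passed in either comparison, and their median log2 changes were 0.0024 and 0.03. The damage kinases Prkdc, Atm and Atr had log2 changes of -0.40, -0.38 and -0.23 in IgAN against WT (limma adjusted p = 0.327, 0.628 and 0.631). Ppm1d, a phosphatase induced by p53 that acts back on it, had a mean of 4.10 ± 0.278 FPKM in GQYS, above 3.40 ± 0.258 for IgAN (SD, n = 3), with ranges apart and a limma adjusted p of 0.568. For Sirt1, a deacetylase of p53, and Mdm4, its inhibitor, the changes in GQYS against IgAN were 0.21 and 0.22.

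Of 34 tested genes among 41 other p53 targets, 0 passed in either comparison, and median log2 changes were 0.0066 and -0.02. At an unadjusted p below 0.05, 6 were higher and 2 lower in IgAN than in WT, and 2 were higher and 3 lower in GQYS than in IgAN. Over all tested genes the shares at that p were 10.3% (6.97% higher) and 10.4% (4.90% lower). Nupr1, a stress-induced chromatin protein, was at 35.7, 19.7 and 20.2 FPKM in IgAN, at 14.9, 13.3 and 9.97 in WT and at 14.0, 12.5 and 10.5 in GQYS. All 3 IgAN libraries were above the others, with limma adjusted p of 0.162 and 0.170. Sesn2, a stress-induced inhibitor of mTORC1, had another pattern: 24.8, 24.9 and 16.5 FPKM in IgAN and 27.1, 15.3 and 23.8 in GQYS, both above 6.78, 13.3 and 14.2 in WT (limma adjusted p = 0.259 for IgAN and 0.905 for GQYS against WT). Btg1, a relative of Btg2, and Aen, an apoptosis-enhancing nuclease, had log2 changes of 0.41 and 0.30 in IgAN against WT, and Tnfaip8 had one of 0.66 in GQYS against IgAN (limma adjusted p = 0.280, 0.390 and 0.173).

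Partners of the GADD45 proteins and the p38 and JNK kinases had 15 tested genes of 18 and 0 past the threshold, with median log2 changes of 0.10 and -0.07. Ppp1r15a, also called GADD34, encodes a regulatory subunit of a phosphatase of eIF2 alpha. It was at 7.15, 5.97 and 4.88 FPKM in the IgAN libraries against 5.10, 3.48 and 3.29 in WT (log2 change 0.50, limma adjusted p = 0.303). Mapk11 and Mapk13, both p38 kinases, had log2 changes of 0.55 and 0.38 and Map2k6, a kinase that activates p38, one of -0.38 in IgAN against WT (limma adjusted p = 0.327 each).

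Among CDK inhibitors and G1 cyclins 0 of 15 tested genes of 19 passed, and median log2 changes were -0.07 and 0.13. Cdkn2c, which encodes the CDK4 and CDK6 inhibitor p18, was lower in all 3 IgAN libraries, at 3.76, 2.66 and 3.46 FPKM against 5.94, 5.76 and 5.60 in WT and 4.54, 4.30 and 5.71 in GQYS. Its log2 changes were -0.66 and 0.45, with limma adjusted p of 0.0813 and 0.256. Cdkn2b, which encodes the related inhibitor p15, was at 1.20, 2.59 and 2.27 FPKM in IgAN and 0.571, 0.921 and 0.557 in WT (log2 change 0.82, limma adjusted p = 0.125). It reached the filter of 1 FPKM in 3 libraries only with its IgAN libraries, its GQYS values being 0.792, 1.24 and 1.01. For the other inhibitors tested, Cdkn2d, Cdkn1c and Cdkn1b, the IgAN to WT ratios of means were 1.10, 1.02 and 0.946, with overlapping ranges. The D-type cyclins Ccnd3 and Ccnd2 had log2 changes of -0.39 and -0.22 in GQYS against IgAN (limma adjusted p = 0.532 and 0.435).

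Only 8 of 18 proliferation genes reached the filter of 1 FPKM in 3 libraries and 0 of them passed, with median log2 changes of -0.05 and -0.0058. Mcm5, a subunit of the replicative helicase, was at 1.28 ± 0.202 FPKM in IgAN and averaged 0.877 ± 0.0899 in the WT libraries (SD, n = 3, limma adjusted p = 0.370). It reached the filter only through IgAN (1.06 to 1.45 FPKM), with at most 0.949 in WT and 1.08 in GQYS. Of the BCL2 family 0 of 13 tested genes passed, and median log2 changes were -0.0011 and 0.02. Mcl1, which restrains apoptosis, had log2 changes of 0.30 and -0.38 and Bcl2l1, another inhibitor, 0.21 and -0.17 (limma adjusted p between 0.358 and 0.637), beside values near 0 for Bax. Bak1 had changes of 0.17 and -0.31 (limma adjusted p = 0.827 and 0.611). Bmf went the other way, with means of 1.02 ± 0.561 FPKM in IgAN, 1.47 ± 0.493 in WT and 1.65 ± 0.351 in GQYS (SD, n = 3). Of the BTG/TOB, PLK and PHLDA relatives 0 of 5 tested genes passed; Tob1, an antiproliferative relative of Btg2, was at 27.6 ± 2.89 FPKM in IgAN, below its WT mean of 34.1 ± 1.20 (SD, n = 3; limma adjusted p = 0.383).

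Immediate-early genes, to which Btg2 and Plk2 are related in their timing, formed the 1 list of the wider pathway, cell type and injury markers aside, in which any gene passed. For IgAN against WT, 2 of 15 tested genes passed, both higher in IgAN. Maff, a small MAF factor, went from 0.392 ± 0.251 to 3.20 ± 1.36 FPKM (SD, n = 3, log2 change 1.56, limma adjusted p = 0.0218). Klf6, a zinc finger factor, went from 7.27 ± 0.164 to 13.6 ± 2.52 FPKM (0.80, 0.0343). Of the 15 log2 changes, 9 were above 0 and 6 below, with a median of 0.46. At a limma unadjusted p below 0.05, 7 were higher and 0 lower. Over all tested genes 54.7% of the changes were above 0 and 6.97% were higher at that p. The call of Maff ended without WT replicates 2 and 3 and IgAN replicate 3 in turn (adjusted p = 0.0947, 0.0798 and 0.106), and that of Klf6 without 8 of the 9 libraries in turn (0.0589 to 0.111), all but WT replicate 1. Both calls also ended with only the 2 groups compared (0.0972 for Maff and 0.156 for Klf6) and with no filter (0.0884 and 0.0766), and that of Klf6 with mitochondrial genes left out of the total (0.0589). The log2 change of Maff was 2.78 with a pseudocount of 0.1 and 3.09 in voom. Maff reached the filter of 1 FPKM in 3 libraries through its IgAN libraries (1.95 to 4.65 FPKM), with at most 0.674 FPKM in WT. In GQYS against IgAN 0 passed, all 15 log2 changes were below 0 with a median of -0.44, and 7 had an unadjusted p below 0.05. Over all tested genes 51.6% of the changes were above 0 and 4.90% were lower at that p. Fosl2 and Dusp1 had log2 changes of -0.59 and -0.62 in that comparison (limma adjusted p = 0.313 and 0.207).

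**Figure D5:**
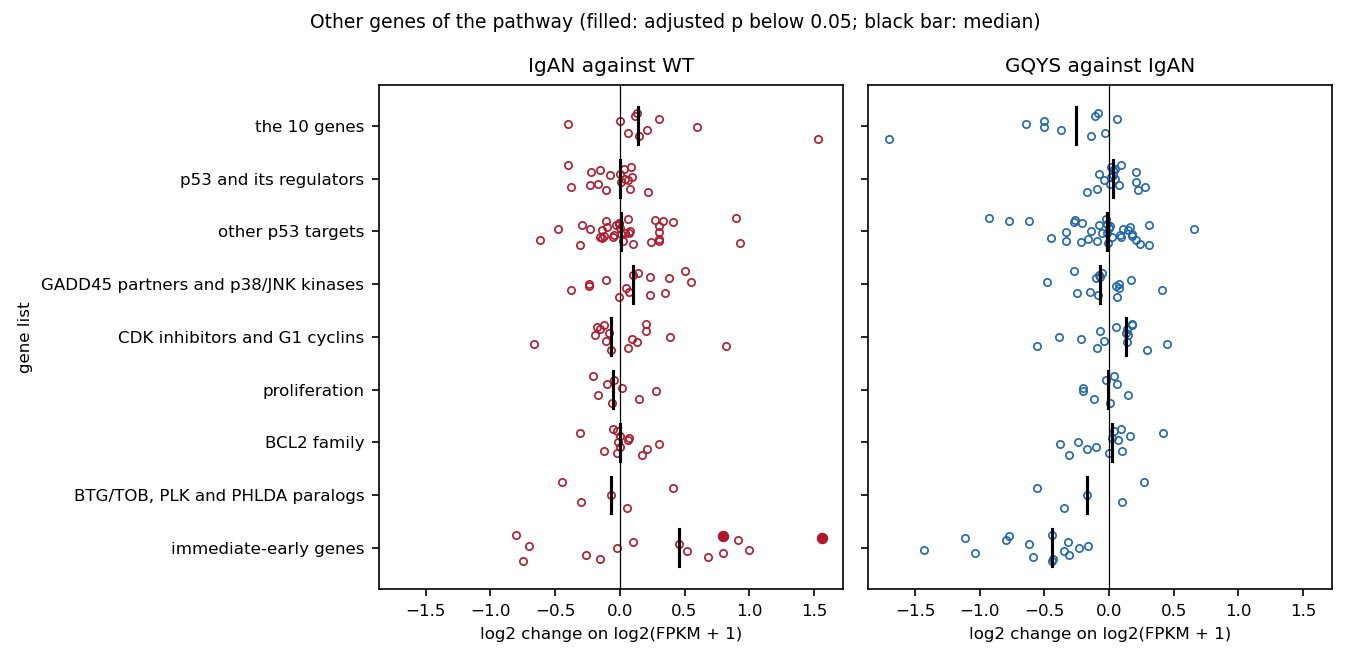
Log2 change of each tested gene (points, filled at an adjusted p below 0.05) in the 10 genes and 8 lists of the wider pathway, with a black bar at the list's median, for IgAN against WT (left) and GQYS against IgAN (right). Medians lay within 0.17 of 0 except those of the 10 genes in the second comparison (-0.25) and of the immediate-early genes (0.46 and -0.44), and the 2 filled points are Maff and Klf6.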

How the data were processed

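Kidney RNA of 9 libraries was sequenced, 3 each in WT, IgAN and GQYS. FPKM values for 26139 genes, as the authors deposited them, were the starting point. Per the submitters' processing notes, which give no roles, the tools were fastp, HISAT2, HTSeq, DESeq2 and R, and the build GRCm39. For strand setting and annotation the sources used here give nothing. Genes with at least 1 FPKM in 3 libraries (11617) were tested on log2(FPKM + 1) with limma 3.58.1 in R 4.3.3 (mean-variance trend, 1 fit over 9 libraries, Benjamini-Hochberg adjustment over all tested genes, threshold 0.05). The smallest exact permutation p that 3 against 3 libraries can give is 0.100. Whole reads were recovered from the FPKM steps for all 26139 genes (tolerance 0.03 reads) and used in voom. The fit was tested on simulated data. Genes named outside the 10 were taken from the 3 of lowest p in each list and comparison with IgAN, those past the threshold, and those most like Cdkn1a and Gadd45a by Pearson r; of the markers, those that describe a cell type or a library that stands apart. Trp53, Egr1, Cdkn1b, Cdkn1c and Cdkn2d were named outside this rule, after their values were seen. The members and lists were chosen with earlier results of these data known. Promoters came from RefSeq, build GRCm38.p6, and no coordinates were converted. In all, 21 alternatives were computed.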

Additional observations from a re-analysis of the deposited data

How the results depend on the processing

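Across 21 alternatives and 30 log2 changes (10 genes in 3 comparisons), 561 of 630 values kept direction and side of the threshold, 12 newly passed, 0 no longer passed and 57 changed sign; none of the reversed results had an unadjusted p below 0.05 in the reported fit. Members past the threshold numbered 2 with library quality weights in both comparisons with IgAN, and 3 in both with the mitochondrial share as covariate. Without WT and IgAN replicate 1 together, 1 passed in GQYS against IgAN (Cdkn1a). Leaving out single libraries gave 0 to 1 in IgAN against WT, the 1 being Gadd45b without WT replicate 1. In IgAN against WT, reversed log2 changes were -0.0034 for Ccng1 and -0.01 for Btg2 (quantile normalization), -0.025 for Btg2 (median-of-ratios scaling), -0.039 for Btg2 (mitochondrial genes left out), -0.29 for Gadd45a, 0.30 for Gadd45g and -0.002 for Plk2 (quality weights), -0.036 for Ccng1 and 0.23 for Gadd45g (mitochondrial covariate), and -0.20 for Gadd45a and 0.19 for Gadd45g (without both replicates 1). In GQYS against IgAN they were 0.031, 0.0021 and 0.042 for Ccng1 (quantile, mitochondrial genes out, covariate), 0.00025 and 0.077 for Phlda3 (weights, without both replicates 1) and 0.043 for Bax (without both). In GQYS against WT they were -0.024, -0.026, -0.0073 and -0.025 for Mdm2 and -0.026, -0.017 and -5.9e-05 for Phlda3 (quantile, median-of-ratios and mitochondrial genes out, then weights for Mdm2), and -0.13 and -0.055 for Ccng1 (weights, without both). Leaving out 1 library, log2 changes that turned ranged in IgAN against WT from -0.026 to 0.18 (Ccng1), -0.046 to 0.49 (Gadd45a), -0.83 to 0.37 (Gadd45g), -0.17 to 0.24 (Btg2), -0.063 to 0.24 (Phlda3) and -0.062 to 0.38 (Bax). In GQYS against IgAN they ranged from -0.15 to 0.068 (Ccng1), -0.053 to 0.16 (Plk2), -0.22 to 0.077 (Phlda3) and -0.25 to 0.043 (Bax). In GQYS against WT they ranged from -0.078 to 0.067 (Mdm2), -0.083 to 0.13 (Ccng1), -0.31 to 0.13 (Gadd45a), -0.0047 to 0.28 (Gadd45b), -0.074 to 0.086 (Phlda3) and -0.15 to 0.29 (Bax). The cause was not tested. Genes called varied from 11 to 732, against 41 reported, in IgAN against WT and from 6 to 404, against 23, in GQYS against IgAN, most with the covariate or weights; GQYS against WT had 53 with weights.

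With the replicate number as a block 0 members passed in each comparison, and 68 and 26 genes in the first 2; adjusted p was 0.0987 and 0.0775 for Cdkn1a and 0.0774 and 0.133 for Gadd45b. Same-numbered libraries deviated together for numbers 1 and 2 (r from 0.223 to 0.581) but not for number 3 (-0.364 to 0.078). Libraries of different number had r from -0.629 (WT replicate 1 with IgAN replicate 2) to 0.526 (WT replicate 3 with IgAN replicate 2). The numbers were therefore not taken to pair the libraries. Depth limits Gadd45b most, with 76 to 173 reads.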
